A study of Mus musculus with 12 samples.

Results

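The resting genotype comparison set 3 vehicle libraries labelled PPARγ knockout (ppar) against 3 vehicle libraries of Cre controls (cre), 6 of the 12 RNA sequencing libraries of the series. The libraries were chosen by their titles, and all genes with enough counts to test were kept, 12914 of the 41388 genes in the deposited tables. Each library came from mouse macrophages drawn to the peritoneal cavity by thioglycolate, an irritant broth, collected on day 4 and plated. One day later they received vehicle, BSA-PBS, for 8 h. Both genotypes carry LysM-Cre, a Cre recombinase expressed from the lysozyme M promoter in myeloid cells. The controls have the Cre alone and the other group is labelled LysM-PPARg. The other 6 libraries, 3 of each genotype treated for 8 h with 250 uM palmitate and 100 ng/ml LPS, served to estimate the spread between replicates and for values set side by side. The strain, age and sex of the mice, and whether replicates were separate mice, are not stated in the sources used here, so the p-values measure the spread between these libraries, which may be technical.

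PPARγ is a nuclear receptor that pairs with RXR and, when bound by fatty acids or their derivatives, activates genes of lipid uptake, storage and breakdown. In macrophages it is known for controlling lipid handling, including the fatty acid receptor CD36 and, through LXRα, cholesterol efflux. It is also known for restraining inflammatory genes and for its part in the alternative and tissue-resident states of macrophages. LysM-Cre acts mainly in macrophages, monocytes and neutrophils, so a conditional allele is recombined mainly in those cells, though not necessarily in all of them.

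The vehicle libraries held 17960457 to 22696385 counts. Levels below are CPM, counts scaled to library size with TMM factors, a difference is on the log2 scale as labelled knockout minus control ± standard error, and a gene was called when its edgeR quasi-likelihood p, adjusted over 12914 genes, was under 0.05. Replicate 1 of the labelled knockout group stood apart from every other vehicle library. On the first principal component of the 6 libraries, with 48.2% of the variance, it lay at 45.7 and the other 5 between -18.5 and 2.81. The second component, with 21.8%, held replicates 2 and 3 at -19.1 and -21.5 and the 3 controls at 7.99 to 15.4, with replicate 1 at 8.92 among the controls. The chi-square per degree of freedom between replicate 1 and its 2 partners was 42.9 and 49.0, against 5.27 between the partners and 2.47 to 7.26 among controls, so no pair of libraries agreed within counting noise. The main counts are therefore given with and without replicate 1.

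The targeted gene ran against the group label. Pparg had 62.3, 61.6 and 61.0 CPM in the control libraries and 111, 91.0 and 95.9 CPM in the libraries labelled knockout. The groups did not overlap, and the library with the most Pparg was replicate 1. The difference was 0.69 ± 0.11 (edgeR adjusted p = 0.00124) with all libraries and 0.60 ± 0.08 (adjusted p = 2.49e-06) without replicate 1. A count over the whole gene includes exons outside any deleted part, so it does not check the deletion, and the group is called labelled knockout throughout. Lyz2, whose locus carries the Cre in this driver, had 22.3, 18.7 and 22.5 CPM against 30.5, 25.9 and 23.3, a difference of 0.33 ± 0.11 that was not called (adjusted p = 0.126). Its near-identical neighbour Lyz1 had 331, 328 and 358 CPM against 379, 281 and 281, and reads of the pair may have been split between them, so both values are uncertain.

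The resting libraries of the 2 groups differed in both directions. In all, 491 genes were called, 3.8% of those tested: 273 were higher in the libraries labelled knockout (2.11%) and 218 lower (1.69%). The median log2 difference was 0.63 among higher and -0.76 among lower genes, and 0.01 over all tested genes. At least 2-fold differences were reached by 58 higher and 63 lower genes, of which 14 and 24 had 10 CPM or more in the higher group. The 3 libraries of one group lay wholly above those of the other in 2554 genes (19.8%; 10.5% higher and 9.27% lower), and all 491 called genes were among them. The total depended on single libraries: it was 261, 262 and 319 without control replicate 1, 2 or 3, 779 without labelled-knockout replicate 1, 397 without replicate 2 and 732 without replicate 3. With only the 6 vehicle libraries in the fit it was 233.

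**Figure D1:**
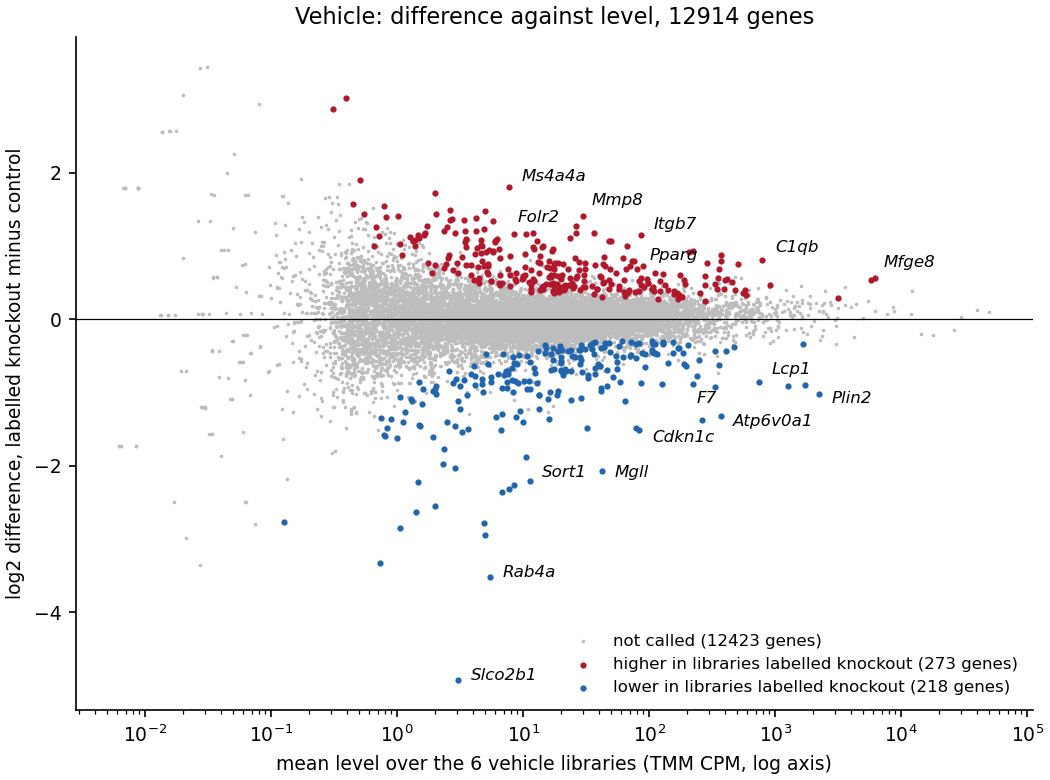
Log2 difference between the labelled knockout and control vehicle libraries (y axis) against the mean level over the 6 libraries in TMM CPM (x axis, log scale), 1 point per tested gene. Red points are the 273 genes called higher, blue points the 218 called lower, and the lower side reaches larger differences, with Slco2b1 at -4.92 and Rab4a at -3.52.

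Enzymes and sorting proteins were among the leading genes lower in the libraries labelled knockout. Sort1, encoding the sorting receptor sortilin, had 18.3, 18.3 and 18.9 CPM in controls and 3.46, 3.82 and 4.66 CPM in the labelled knockout libraries (-2.21 ± 0.13, adjusted p = 1.98e-07). Its highest labelled knockout library lay far below the lowest control. Mt3, a metallothionein that binds zinc and copper, had 11.5, 13.02 and 13.9 CPM against 3.14, 2.91 and 1.73 (-2.31 ± 0.17), and Cmbl, a hydrolase, had 10.7, 11.5 and 11.6 CPM against 3.51, 1.87 and 1.40 (-2.35 ± 0.22). Cdk5rap1, an enzyme that modifies mitochondrial tRNA, differed by -1.87 ± 0.18. Ramp1, a subunit of the receptor for calcitonin gene-related peptide, differed by -1.40 ± 0.13, and Gdf15, a stress-induced secreted factor, by -1.22 ± 0.14.

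Among well-expressed lower genes were a cell cycle inhibitor, a clotting factor and a membrane organiser. Cdkn1c, which encodes the CDK inhibitor p57, had 121, 122.8 and 127 CPM in controls and 56.3, 37.9 and 36.3 CPM in the labelled knockout libraries (-1.51 ± 0.14, adjusted p = 9.31e-06). F7, encoding coagulation factor VII, had 351, 379 and 413 CPM against 158, 142 and 142 (-1.37 ± 0.08, adjusted p = 1.98e-07). Tspan7, a tetraspanin, had 45.3, 47.0 and 49.3 CPM against 19.2, 15.3 and 16.2 (-1.49 ± 0.11). In these 3 genes replicate 1 was the labelled knockout library nearest to the controls, and the difference without it was -1.74, -1.43 and -1.58. Enpp1, which makes pyrophosphate from extracellular ATP, differed by -0.99 ± 0.10, and Slc37a2, a sugar-phosphate carrier of the endoplasmic reticulum, by -0.88 ± 0.07, with all 3 libraries of each group between 273 and 297 and between 151 and 162 CPM. Enpp1 was chosen after its values were seen.

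A further set of lower genes had its lowest level in replicate 1. Atp6v0a1, a subunit of the proton pump that acidifies endosomes and lysosomes, had 529, 528 and 524 CPM in controls and 147, 247 and 240 CPM in the labelled knockout libraries (-1.32 ± 0.14, and -1.11 ± 0.06 without replicate 1). Snx27, which recycles receptors from endosomes, had 120, 119 and 111 CPM against 32.8, 45.6 and 46.5 (-1.48 ± 0.11, and -1.34 without replicate 1). Lcp1, the actin-bundling protein L-plastin, had 1622, 1677 and 1665 CPM against 708, 977 and 955 (-0.91 ± 0.10, and -0.78 without replicate 1). Replicates 2 and 3 of these genes stood close together and below every control. Itpk1, an inositol phosphate kinase (-1.36 ± 0.11), and Ly75, the endocytic receptor DEC-205 (-1.33 ± 0.14), showed the same order. Epas1, the transcription factor HIF-2α, had 178, 164 and 149 CPM against 50.3, 108 and 106, and its call (-0.89 ± 0.22, adjusted p = 0.0365) was lost without control replicate 1, 2 or 3 and with only the 6 vehicle libraries, with an adjusted p of up to 0.158.

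**Figure D2:**
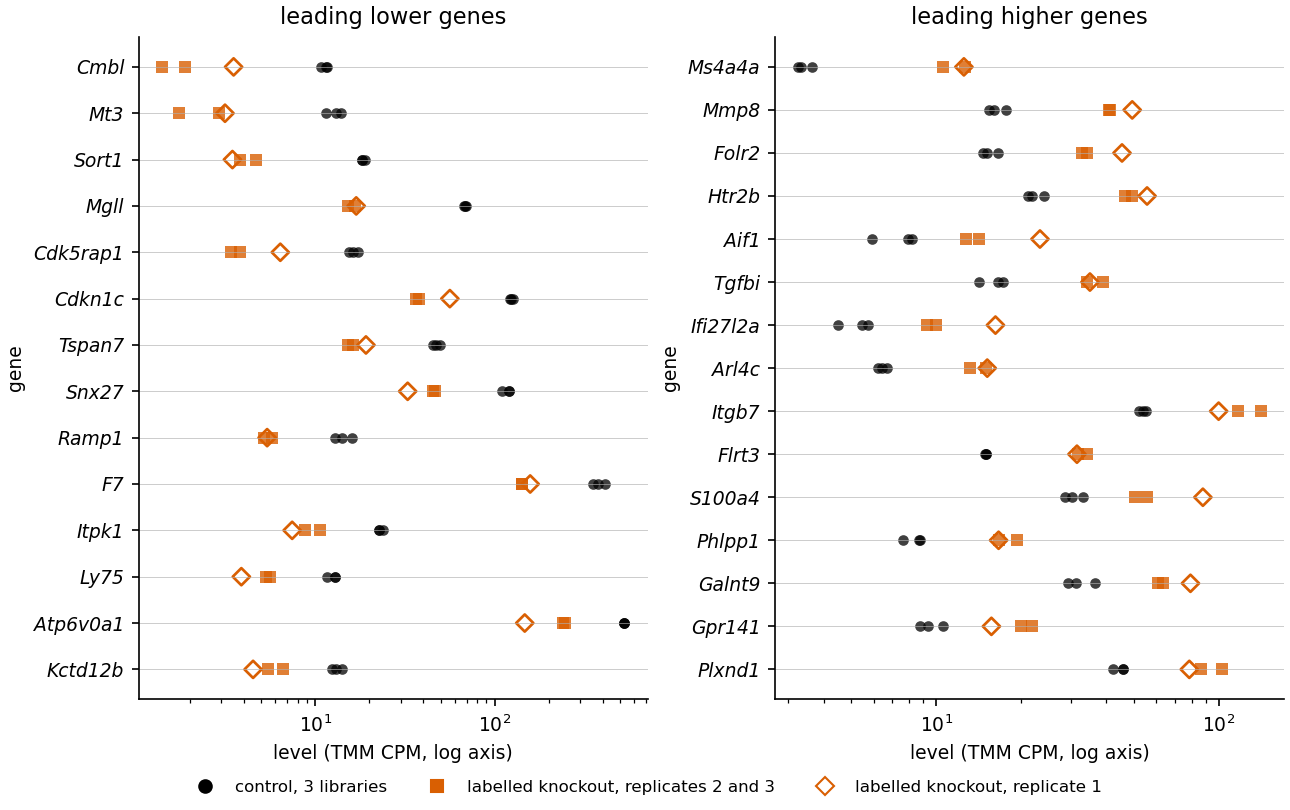
Level of the genes with the largest lower (left) and largest higher (right) differences at 10 CPM or more, in TMM CPM on a log axis, 1 mark per library. Black circles are the 3 control libraries, filled squares labelled knockout replicates 2 and 3, and open diamonds replicate 1. Only genes without overlap between the groups were eligible, so replicate 1 lies on the side of its partners by choice of genes.

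Some of the largest differences were in genes of low level, chosen after their values were seen except Rab4a. Slco2b1, an organic anion transporter, had 5.98, 5.24 and 6.57 CPM in controls and 0.105, 0.199 and 0.247 CPM in the labelled knockout libraries (-4.92 ± 0.28, adjusted p = 3.84e-07). Rab4a, a GTPase of endosomal recycling, had 8.74, 10.1 and 11.01 CPM against 0.786, 1.19 and 0.577 (-3.52 ± 0.25), and Sh2d1b2, an adaptor of SLAM family receptors, had 8.22, 8.77 and 9.34 CPM against 1.57, 0.836 and 1.07 (-2.94 ± 0.22). The groups of each gene stood several-fold apart. Ace, the angiotensin-converting enzyme, had 0.808 to 1.83 CPM in controls and at most 0.165 CPM in the labelled knockout libraries (-3.33 ± 0.44). On the higher side Stmn4, a microtubule regulator, had 0.0383 to 0.101 CPM in controls and 0.478 to 0.629 CPM in the labelled knockout libraries (2.87 ± 0.50), and Il1f9, encoding interleukin-36γ, had at most 0.303 CPM in controls and 0.742 to 0.891 CPM in the other group (1.90 ± 0.34).

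Every PPAR target gene that was called was lower, and most were not called. Of 31 tested members of a list of known PPAR targets, 9 were lower, 0 higher and 22 not called, a share of 29.0% beside the 1.69% of all genes called lower. Without replicate 1, 11 were lower and 0 higher. This list and the other gene lists were chosen with earlier results of these data known, which may raise their shares. Plin2, which coats lipid droplets, had 2856, 2925 and 3263 CPM in controls and 1697, 1384 and 1359 CPM in the labelled knockout libraries (-1.03 ± 0.09). Cd36, the fatty acid and oxidised lipoprotein receptor, had 2224, 2229 and 2274 CPM against 1061, 1285 and 1264 (-0.90 ± 0.08), and Mgll, a monoglyceride lipase, had 68.2, 69.0 and 67.3 CPM against 16.9, 16.6 and 15.2 (-2.07 ± 0.10). In all 3 genes the highest labelled knockout library lay far below the lowest control. Pnpla2, encoding the triglyceride lipase ATGL, had 287, 300 and 320 CPM against 188, 165 and 179 (-0.77 ± 0.08). Fabp4, a fatty acid-binding protein and well-known PPARγ target, had 412, 392 and 414 CPM against 383, 242 and 239. Its difference was not called with all libraries (-0.50 ± 0.14, adjusted p = 0.0717) and was called without replicate 1 (-0.75 ± 0.07, adjusted p = 6.43e-09). The median of the 31 genes was -0.17, and -0.16 without replicate 1.

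To show the sequence upstream of lower genes, the promoter windows of a RefSeq table (GRCm38.p6, the build of the files, 250 bases before to 50 after a gene start) were searched on both strands for the nuclear receptor half-site AGGTCA, whose reverse complement is TGACCT. The windows matched 76.0% of the called genes, under the 80% set for comparing shares between gene sets, so no such comparison was made. The half-site stood in 16.3% of all 32851 windows. An exact direct repeat of it with 1 base between (DR1, the element bound by PPAR with RXR) stood in 13 windows, none of them of a called gene. Repeats that differ from it in any base of a half-site were not searched. Of the leading and the most abundant lower genes, 4 had the half-site before the start, all as TGACCT, in capitals below. The number of these genes with a window is not given here, so the 4 show no excess over the 16.3% of all windows. A match of 6 letters is a description and not a bound site.
Cd36 (chr5:17836069-17836146, minus strand): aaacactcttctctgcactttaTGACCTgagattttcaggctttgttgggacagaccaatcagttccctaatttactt
Plin2 (chr4:86670222-86670309, minus strand): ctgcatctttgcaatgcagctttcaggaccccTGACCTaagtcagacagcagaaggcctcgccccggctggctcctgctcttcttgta
F7 (chr8:13025950-13026033, plus strand): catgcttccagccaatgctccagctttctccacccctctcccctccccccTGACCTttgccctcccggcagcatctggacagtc
Tspan7 (chrX:10484866-10484925, plus strand): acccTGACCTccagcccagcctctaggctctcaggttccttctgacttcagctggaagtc
The half-site of F7 began 34 bases before the RefSeq start, and those of Plin2, Cd36 and Tspan7 began 218, 228 and 246 bases before it.

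Other lipid genes moved less evenly. Of 30 tested genes of triglyceride synthesis and lipolysis, 5 were lower and 0 higher (16.7%, beside 3.8% of all genes). Without replicate 1, 8 were lower. The only one outside the PPAR target list was Dgat1, which makes triglyceride, at 18.2 to 20.4 CPM against 12.9 to 15.96 (-0.39 ± 0.10), named after its values were seen, and its call was lost in 5 of 15 other settings, among them the omission of control replicate 1 or 2 (adjusted p up to 0.188). Of 23 LXR targets and cholesterol efflux genes, 2 were lower and 1 higher. Without labelled knockout replicate 1, 3 were lower and 2 higher, and without replicate 3, 2 were higher. Nr1h3, encoding LXRα, had 84.6, 82.7 and 98.3 CPM against 48.3, 37.5 and 36.5 (-1.12 ± 0.12), and Abcg1, a cholesterol exporter, had 917, 947 and 1001 CPM against 619, 523 and 440 (-0.86 ± 0.12). Arl4c, a small GTPase known as an LXR target, went the other way, with 6.69, 6.24 and 6.41 CPM against 15.1, 13.1 and 15.01 (1.16 ± 0.12). In sphingolipid metabolism 1 gene of 32 was higher and 3 were lower (12.5%, beside 3.8% of all genes). Without labelled knockout replicate 1 they were 1 and 4. The higher one was Sphk1, which makes sphingosine 1-phosphate (0.98 ± 0.10). The 3 were Smpd3, Degs2 and Acer3, and their calls were lost without control replicate 1 or 2 and with only the 6 vehicle libraries, those of Smpd3 and Degs2 also without control replicate 3. The largest edgeR adjusted p over these settings was 0.142 for Smpd3, 0.195 for Degs2 and 0.141 for Acer3. None of the 26 genes of cholesterol synthesis and uptake was called by edgeR with all libraries or by DESeq2, 5 had an unadjusted p under 0.05, limma with quality weights called 2, and 2 were lower without replicate 1.

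The genes higher in the libraries labelled knockout were led by membrane and secreted proteins. Ms4a4a, a tetraspan membrane protein of macrophages, had 3.25, 3.64 and 3.33 CPM in controls and 12.5, 12.6 and 10.6 CPM in the labelled knockout libraries (1.80 ± 0.20, adjusted p = 5.48e-05). Mmp8, a collagenase, had 17.7, 15.4 and 16.1 CPM against 49.3, 41.0 and 40.9 (1.42 ± 0.13), and Folr2, a folate receptor of tissue macrophages, had 14.6, 15.1 and 16.6 CPM against 45.4, 32.8 and 34.02 (1.28 ± 0.13). No control library reached any labelled knockout library in these genes, which was a condition of their choice. Htr2b, a serotonin receptor, had 21.7, 21.1 and 24.0 CPM against 55.7, 49.1 and 46.7 (1.18 ± 0.10), and Itgb7, an integrin β chain, had 53.7, 51.99 and 55.1 CPM against 99.7, 117 and 140 (1.15 ± 0.11). Flrt3, an adhesion protein, held 14.9 to 15.1 CPM in controls and 31.4 to 34.1 CPM in the other group (1.11 ± 0.12). S100a4, a calcium-binding protein, had 28.6, 30.2 and 33.1 CPM against 87.7, 50.6 and 55.5, and its difference was 1.07 ± 0.18 with and 0.79 ± 0.11 without replicate 1.

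Abundant genes were also among the higher ones. Mfge8, which bridges apoptotic cells to phagocytes, had 4705, 4929 and 5337 CPM in controls and 8236, 7236 and 6738 CPM in the labelled knockout libraries (0.57 ± 0.09, adjusted p = 0.00201). Anxa1, the anti-inflammatory protein annexin A1, had 4528, 4629 and 5035 CPM against 8257, 6451 and 5816. Its call (0.53 ± 0.11, adjusted p = 0.00788) was lost without control replicate 1 or 2 and with only the 6 vehicle libraries, with an adjusted p of up to 0.103. In both genes replicate 1 was the highest library, and the differences without it were 0.49 and 0.37. Sgk1, a kinase induced by glucocorticoids, had 763, 773 and 775 CPM against 1042, 1090.3 and 1058 (0.47 ± 0.06), and Npy, encoding neuropeptide Y, had 340, 366 and 415 CPM against 861, 520 and 520 (0.76 ± 0.16). The call of Npy was lost in the same settings (adjusted p up to 0.106).

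Among genes of resident and tissue macrophages all but 1 of the calls were higher. Of 27 tested members of that list, 11 were higher, 1 lower and 15 not called (44.4% called, beside 3.8% of all genes). Without replicate 1, 12 were higher and 2 lower. This list too was chosen with earlier results of these data known, which may raise its share. The median difference of the list was 0.42, and 0.44 without replicate 1, beside medians of 0.01 and 0 over all genes. The 3 chains of C1q, which starts the classical complement pathway, lie side by side on chromosome 4, and all were higher. C1qa had 57.7, 51.3 and 57.9 CPM against 97.1, 94.3 and 98.1 (0.79 ± 0.08), C1qc differed by 0.79 ± 0.09, and C1qb had 566, 548 and 616 CPM against 1207, 957 and 860 (0.81 ± 0.11). Igf1, a growth factor made by tissue macrophages, had 213, 201 and 220 CPM against 410, 344 and 329 (0.77 ± 0.09). Marco, a scavenger receptor, had 8.03 to 8.69 CPM against 15.2 to 17.2 (0.96 ± 0.11), Stab1, another scavenger receptor, differed by 0.73 ± 0.11, and Cx3cr1, the fractalkine receptor, by 1.36 ± 0.21 at 1.23 to 1.62 against 3.46 to 4.14 CPM. The member called against the majority was Clec10a, a galactose-binding lectin, at 5.21 to 6.92 against 2.56 to 3.88 CPM (-0.82 ± 0.20). Its call was lost when any of the 3 controls, or labelled knockout replicate 2 or 3, was left out (adjusted p up to 0.132).

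In the monocyte list most genes were not called. Of 28 genes typical of monocytes and recruited macrophages, 5 were higher and 0 lower (17.9%, beside 3.8% of all genes). Without replicate 1 they were 9 and 1. The 5 higher with all libraries were S100a4, Gpr141, Hp, Fpr1 and Clec4n. Without labelled knockout replicate 3, 8 were higher. Clec4n, the fungal receptor dectin-2, had 2.65, 2.72 and 4.44 CPM against 9.17, 7.88 and 7.42 (1.34 ± 0.19), and Hp, encoding haptoglobin, had 3.62, 3.75 and 4.39 CPM against 10.4, 7.13 and 7.63 (1.09 ± 0.19). In the alternative activation list 3 of 25 were higher and 2 lower (20%, beside 3.8% of all genes). The higher count was 1 without any 1 of the 3 controls or without labelled knockout replicate 2, and 5 without labelled knockout replicate 1. Arg1, encoding arginase 1, was lower at 16.02, 17.2 and 20.96 CPM against 9.70, 7.92 and 8.91 (-1.03 ± 0.13), while Stab1 was higher. In bulk RNA, fewer cells of a type and less RNA per cell cannot be told apart.

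The called members of the MS4A family lay within one stretch of chromosome 19. Of 11 tested members of these tetraspan proteins, 5 were higher, 0 lower and 6 not called (45.5% called, beside 3.8% of all genes). Without replicate 1, 4 were higher and 1 lower. All 5 called with all libraries lie in one run of 9 tested genes between positions 11301249 and 11531256 (GRCm38). Ms4a7 had 143, 136 and 150 CPM against 352, 236 and 220 (0.91 ± 0.14, and 0.67 ± 0.08 without replicate 1), and Ms4a6b had 2.43, 2.76 and 1.67 CPM against 6.71, 6.25 and 5.32 (1.39 ± 0.21). The library labelled replicate 1 was the highest of the 6 in both. Ms4a6c (0.76 ± 0.16) lost its call without replicate 1 (adjusted p = 0.181) and without control replicate 1 or 2. Ms4a14 (0.98 ± 0.21), named for the run, lost its call in 4 of 15 other settings with an adjusted p of up to 0.138. Ms4a8a, outside the run, had 59.7, 66.5 and 67.4 CPM against 64.6, 45.5 and 39.96, and was called lower only without replicate 1 (-0.59 ± 0.09, adjusted p = 2.39e-05). Members of the family resemble one another in sequence, and how shared reads were counted is not stated in the sources used here.

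Receptors for chemoattractants were called in one direction only. Of 20 tested, 6 were higher and 0 lower (30%, beside 3.8% of all genes), and 8 higher without replicate 1. The count fell to 3 without control replicate 1. C5ar1, the C5a receptor, had 470, 484 and 536 CPM in controls and 706, 660 and 598 CPM in the labelled knockout libraries (0.40 ± 0.08), with its call lost without control replicate 1 or 2 and with only the 6 vehicle libraries (adjusted p up to 0.108). Cxcr3 (0.89 ± 0.17), Fpr1 (1.26 ± 0.29) and Cxcr2 (1.54 ± 0.36) were low, with at most 3.29, 0.421 and 0.536 CPM in any control. Fpr1 and Cxcr2 were named after their values were seen and lost their calls in 6 and 4 of 15 other settings, without control replicate 1 or 3 and labelled knockout replicate 2 among them (adjusted p up to 0.0931 and 0.16). Among 87 other G protein-coupled receptors 8 were higher and 2 lower (11.5%, beside 3.8% of all genes). Without labelled knockout replicate 1 they were 13 and 3. The higher count was 4 without control replicate 3, with 5 without control replicate 1 or labelled knockout replicate 2. Gpr141, an orphan receptor, had 10.6, 9.38 and 8.74 CPM against 15.7, 19.9 and 21.9 (1.00 ± 0.12). Il21r, the interleukin-21 receptor, had 2.61, 2.34 and 2.93 CPM against 7.23, 7.25 and 7.34 (1.48 ± 0.17) and was 1 of 2 called among 62 cytokine receptor genes. The share called in that list, 3.23%, lies near the 3.8% of all genes, and it was 12.9% (8 higher) without labelled knockout replicate 1 beside 6.03% of all genes. Without replicate 3, 3 were higher and 1 lower.

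Lectin-like receptors split. Of 35 tested C-type lectins and Siglecs, 7 were higher and 4 lower (31.4%, beside 3.8% of all genes). Without replicate 1 they were 10 and 6. Without control replicate 1 the higher count was 4. Siglec1, the sialic acid receptor CD169, had 9.22, 9.91 and 7.17 CPM in controls and 2.83, 3.58 and 3.96 CPM in the labelled knockout libraries (-1.34 ± 0.18). Clec4b1 had 2.99, 2.37 and 3.33 CPM against 1.31, 0.756 and 0.825 (-1.61 ± 0.24), although its neighbours on chromosome 6, Clec4n and Clec4a1 (0.69 ± 0.14), were higher. The call of Clec4a1, named as that neighbour, was lost without control replicate 2 (adjusted p = 0.0786). Among 41 Fc, TREM, PIR, LILR, CD200R and CD300 receptors 2 were higher and 2 lower (9.76%, beside 3.8% of all genes). The lower count was 4 without labelled knockout replicate 1, and 1 without control replicate 2 or 3 or labelled knockout replicate 2. Fcgr4, which binds IgG2, was lower at 58.0, 58.3 and 65.4 CPM against 39.8, 29.4 and 27.3 (-0.92 ± 0.14). Lilra6 (0.76 ± 0.10) and Lair1 (0.54 ± 0.08) were higher. Of 32 scavenger and efferocytosis receptors and ligands 5 were higher and 5 lower (31.25%, beside 3.8% of all genes). Without replicate 1 they were 5 and 6. Axl, a receptor tyrosine kinase that clears apoptotic cells, had 13.4, 12.2 and 13.2 CPM against 5.71, 7.52 and 8.29 (-0.84 ± 0.12), while the bridging ligand gene Mfge8 was higher. The lower count was 3 without control replicate 1, 2 or 3.

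**Figure D3:**
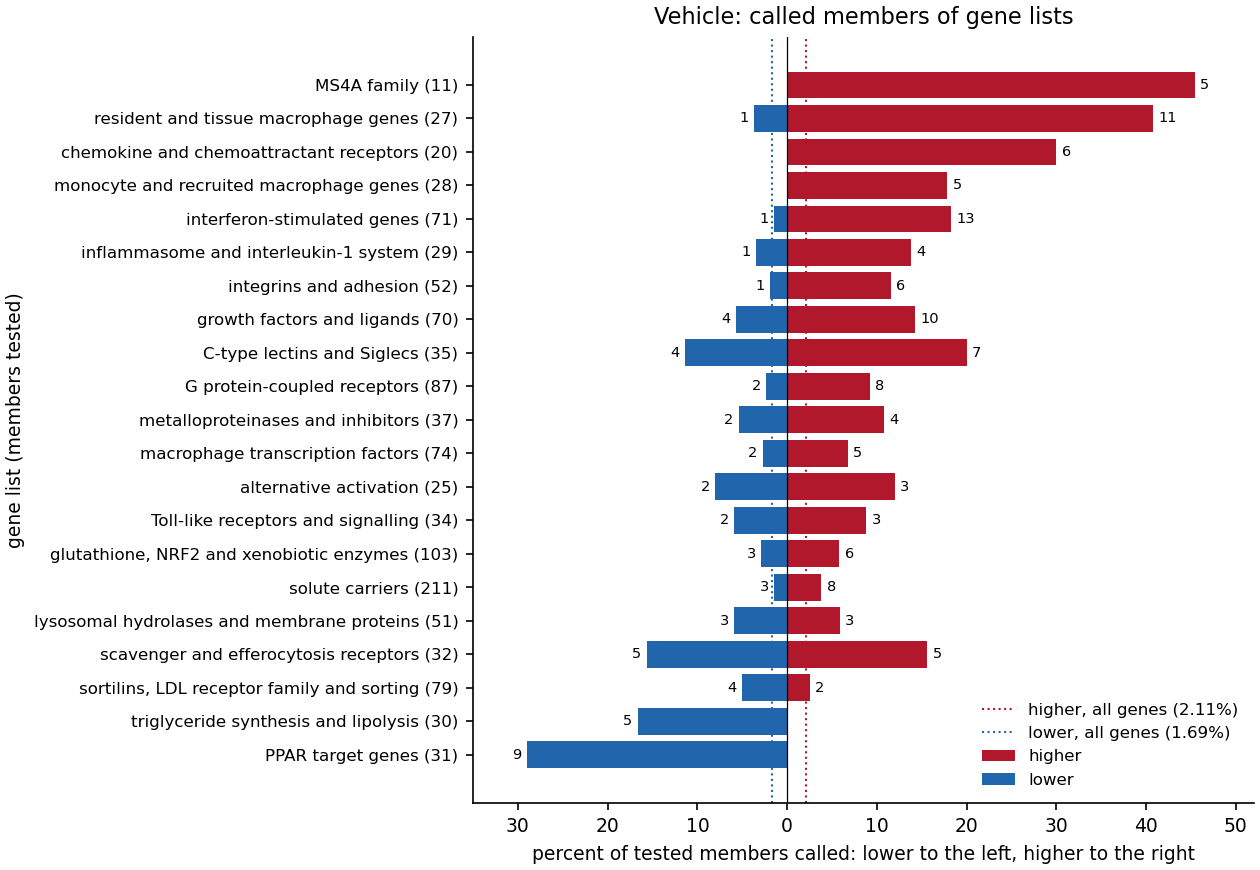
Percent of the tested members of each gene list called higher (red, to the right) or lower (blue, to the left) in the vehicle libraries labelled knockout, for lists with at least 5 calls, with the number of members tested in brackets and the number called at the end of each bar. Dotted lines mark the 2.11% and 1.69% of all tested genes called higher and lower. The MS4A family and the resident macrophage genes extend farthest to the right and the PPAR targets farthest to the left. The lists were chosen with earlier results of these data known.

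Adhesion and matrix genes differed gene by gene. Of 52 integrin and adhesion genes 6 were higher and 1 lower (13.5%, beside 3.8% of all genes), and 9 and 1 without replicate 1. Without labelled knockout replicate 3, 3 were lower. Tgfbi, a matrix protein induced by TGF-β, had 17.3, 14.2 and 16.6 CPM against 35.0, 39.0 and 34.2 (1.17 ± 0.12), and Cldn23, a claudin, was the lower one, at 3.06, 3.52 and 4.39 CPM against 0.996, 0.717 and 1.07 (-1.97 ± 0.23). Of 37 metalloproteinases and inhibitors 4 were higher and 2 lower (16.2%, beside 3.8% of all genes), and 5 and 2 without replicate 1. Without control replicate 1 or 2, 2 were higher. Both lower ones were MMPs: Mmp19 had 39.7, 42.3 and 42.2 CPM against 22.7, 24.4 and 24.0 (-0.80 ± 0.08), and Mmp9, gelatinase B, differed by -0.83 ± 0.16, a call lost without control replicate 2 (adjusted p = 0.0501). Of 70 growth factors, their receptors and ligands 10 were higher and 4 lower (20%, beside 3.8% of all genes). Without replicate 1 they were 12 and 5. Without control replicate 1, 5 were higher. Pdgfb had 3.88, 3.52 and 4.14 CPM against 9.54, 7.29 and 7.26 (1.06 ± 0.14), and its relative Pdgfc went the other way at 2.39, 2.49 and 1.62 against 1.15, 0.876 and 0.948 CPM (-1.15 ± 0.23), a call lost without control replicate 1 or 2 (adjusted p up to 0.0608). This pair was named after its values were seen. Plxnd1, a semaphorin receptor, had 45.6, 45.9 and 42.3 CPM against 78.5, 86.4 and 103 (1.00 ± 0.10).

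Among regulators, Rab19, a GTPase of vesicle traffic, had 14.6, 13.9 and 13.8 CPM in controls and 9.59, 6.65 and 5.90 CPM in the labelled knockout libraries (-0.95 ± 0.16). Rap1gap, which switches off RAP1, was also lower (-0.82 ± 0.15). Of 74 macrophage transcription factors 5 were higher and 2 lower (9.46%, beside 3.8% of all genes), the latter Nr1h3 and Epas1. The higher ones were Maf, Batf3, Ahr, Irf4 and Irf1. Ahr, the aryl hydrocarbon receptor, stood at 0.657 to 1.53 CPM against 2.23 to 2.27 (1.15 ± 0.26), and all 5 calls were lost in at least 4 of 15 other settings, each of them without control replicate 1. The largest edgeR adjusted p over these settings was 0.135 for Maf, 0.14 for Batf3, 0.123 for Ahr, 0.112 for Irf4 and 0.137 for Irf1. Maf and Batf3 were added after their values were seen. The higher count ran from 0 without control replicate 1 to 9 without labelled knockout replicate 1, with 1 without control replicate 2 or 3, 2 without labelled knockout replicate 2 and 8 without replicate 3. In iron handling 2 of 29 were lower and 0 higher (6.90%, beside 3.8% of all genes). Without labelled knockout replicate 1, 3 were lower and 3 higher, 1 was higher without replicate 2 and 2 were higher without replicate 3, and 1 was lower without control replicate 1 or 2. The lower ones were Tfrc, the transferrin receptor (60.5, 55.0 and 49.3 CPM against 20.4, 33.4 and 29.8, -0.98 ± 0.15), and Ncoa4, the ferritin autophagy receptor (-0.67 ± 0.14). The call of Ncoa4 was lost without control replicate 1 or 2 and with only the 6 vehicle libraries (adjusted p up to 0.096).

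Detoxifying enzymes and solute carriers held calls in both directions. Of 103 glutathione, NRF2 and xenobiotic enzyme genes 6 were higher and 3 lower (8.74%, beside 3.8% of all genes). Without labelled knockout replicate 1 they were 8 and 8, without replicate 3 the higher count was 11, and without control replicate 2 the lower count was 1. Gpx3, a secreted glutathione peroxidase, had 50.5, 53.2 and 55.4 CPM in controls and 99.8, 83.3 and 81.2 CPM in the labelled knockout libraries (0.73 ± 0.11), and Cyp4f18, a cytochrome P450 that inactivates leukotriene B4, had 12.8, 13.2 and 13.7 CPM against 26.9, 21.2 and 19.8 (0.77 ± 0.12). Replicate 1 was the highest library in both. Ptgs1, which encodes cyclooxygenase-1, had 67.3, 69.0 and 67.0 CPM against 101, 100.3 and 92.0 (0.53 ± 0.09). Cxcl16, a membrane-bound chemokine and scavenger receptor, was the only one called of 26 chemokine genes with all libraries (3.85%), and lay at 43.5, 42.4 and 48.0 CPM against 83.4, 79.1 and 76.2 (0.84 ± 0.08). The count of called chemokine genes was 2 without labelled knockout replicate 1 and 5 without replicate 3. Of 211 solute carriers 8 were higher and 3 lower (5.21%, beside 3.8% of all genes). Without labelled knockout replicate 1, 12 were higher and 6 lower (8.53%), and without replicate 3, 8 were lower, with 4 higher without control replicate 1 and 5 without control replicate 2 or 3.

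Interferon-stimulated genes had more higher than lower calls, at counts that varied with the libraries used. Of 71 interferon-stimulated genes 13 were higher and 1 lower (19.7%, beside 3.8% of all genes), and 16 and 1 without replicate 1. Only 3 were higher without control replicate 1 or 2, 8 without control replicate 3 and 1 with only the 6 vehicle libraries. Of 49 LPS-responsive cytokines and mediators 4 were higher and 0 lower (8.16%, beside 3.8% of all genes), and 4 and 1 without labelled knockout replicate 1. Without replicate 3, 7 were higher. Ifi27l2a, a mitochondrial interferon-induced protein, had 5.71, 4.48 and 5.45 CPM against 16.2, 9.28 and 9.98 (1.17 ± 0.21). Cd14, the LPS co-receptor, had 254, 268 and 288 CPM against 569, 439 and 400 (0.80 ± 0.11), and Map3k8, the kinase TPL2 downstream of Toll-like receptors, had 58.2, 57.9 and 56.5 CPM against 32.9, 37.8 and 35.8 (-0.69 ± 0.08). Cd14 and Map3k8 thus lay on opposite sides of the same pathway list. In that list 3 of 34 genes were higher and 2 lower (14.7%, beside 3.8% of all genes). The higher count was 1 without control replicate 1 or 2 and 5 without labelled knockout replicate 1. Of 51 MAP kinase phosphatases and mRNA decay factors 2 were higher and 2 lower (7.84%, beside 3.8% of all genes). The higher count was 0 without control replicate 1 or 2 and 1 without labelled knockout replicate 2. Without labelled knockout replicate 3, 4 were lower. The lower ones with all libraries were Dusp6 (-0.73 ± 0.11) and Dusp10 (-0.60 ± 0.12). Dusp10 lost its call without control replicate 2 (adjusted p = 0.0616).

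Several gene lists had no call. With 3.8% of all genes called, the smaller of these lists could hold none without differing from other genes. By edgeR no member was called with all libraries among 17 PPAR and RXR receptors and cofactors other than Pparg, 90 nuclear-encoded respiratory chain genes, 8 mitochondrially encoded genes, 14 MHC class II genes, 18 clock genes, 30 genes of the unfolded protein and integrated stress response and 20 histone genes. At an unadjusted p under 0.05 these lists held 3, 5, 1, 7, 2, 3 and 3 genes in the same order, beside 2064 of all 12914 genes. DESeq2 called 4 MHC class II, 1 clock and 2 stress response genes and none in the other 4 lists. The limma fit with quality weights called 1 cofactor, 4 mitochondrially encoded, 5 MHC class II, 1 clock, 2 stress response and 2 histone genes. Without replicate 1 edgeR called 1 MHC class II, 1 clock, 2 stress response and 1 histone gene, and none of the cofactors and respiratory chain genes. Among 81 ribosomal protein genes 1 was lower, Rpl5. Its call was lost in 7 of 15 other settings, without control replicate 1, 2 or 3 or labelled knockout replicate 3 among them (adjusted p up to 0.174), and without labelled knockout replicate 1 the list had 2 lower genes. The medians of 2 of these families moved with replicate 1: ribosomal protein genes had a median of 0.20 with it and -0.04 without it, and respiratory chain genes 0.18 and -0.05. The mitochondrially encoded genes had a median of -0.09 with it and -0.26 without it, and 6 of 8 were then called lower. The MHC class II genes had a median of 0.39 with replicate 1 and 0.27 without it.

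Markers of other cell types were checked in the same libraries. The defining macrophage markers were abundant in all 6, with a summed level of 17052 to 19530 CPM in controls and 18018 to 23028 CPM in the labelled knockout libraries, and Lgals3, Cd68, Csf1r and Adgre1 were not called. Of the 9 markers Cd14 was higher and Mertk lower, the call of Mertk being lost without control replicate 1, 2 or 3 (adjusted p up to 0.182 over all settings). Of 13 neutrophil markers 7 were tested, 2 were higher (Mmp8 and Cxcr2) and 1 lower (Mmp9). The sum of the 13 was 90.0 to 92.5 CPM against 119 to 122. Most of the rise was Mmp8 (mean of 16.4 against 43.7 CPM), and the largest part of the sum was Csf3r (57.2 against 63.0 CPM). Ly6g was at 0 in all 6 libraries and S100a8 at 4.99 against 5.24 CPM. Of 13 fibroblast and mesothelial markers 12 were tested and 1 was called, Sparc (higher). Their sum was 186 to 208 CPM against 258 to 305, without overlap. Sparc had 63.5, 69.2 and 67.3 CPM against 143, 107 and 82.6, and lost its call without replicate 1 (adjusted p = 0.238) and in 5 other settings. The sum of the 7 small peritoneal macrophage and monocyte markers was 141 to 161 CPM against 183 to 253, most of it H2-Aa, and 1 of 6 tested was higher (Irf4). B cell markers summed to 42.6 to 52.2 CPM against 34.5 to 35.6, with Ighm lower and Pax5 at 0. The call of Ighm was lost in 4 of 15 other settings, without control replicate 2 or 3 and labelled knockout replicate 2 among them (adjusted p up to 0.113). The 8 large peritoneal macrophage markers summed to 124 to 134 against 118 to 153 CPM with none called. Eosinophil, mast cell and dendritic cell markers summed to at most 8.84, 9.42 and 11.3 CPM in any library, with 1 mast cell marker (Kit) and 1 dendritic cell marker (Batf3) higher, calls lost in 8 and 5 of 15 other settings (adjusted p up to 0.161 and 0.14), and T and NK cell and erythroid markers to at most 1.39 and 0.261 CPM. Of 6 sex-linked genes, the Y-linked Eif2s3y, Kdm5d and Uty were at 0 in every vehicle library, and Xist, which is expressed from the inactive X of female cells, lay at 65.5 to 87.2 CPM in controls and 59.7 to 80.5 CPM in the labelled knockout libraries. The part of these markers in the results above was not tested.

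Leaving out replicate 1 of the labelled knockout group added calls and removed few. The comparison of replicates 2 and 3 with the 3 controls called 779 genes (6.03%), 423 higher (3.28%) and 356 lower (2.76%). Of the 491 genes called with all libraries, 465 (94.7%) were called again, all in the same direction, and none of these moved by more than 1.5-fold. They were 59.7% of the 779. A further 314 genes were called only without replicate 1, 170 higher and 144 lower, and 310 of them had the same sign with it. The other 26 were called only with it, 20 higher and 6 lower. Among higher calls replicate 1 was the highest of its group in 169 and the lowest in 71 of 273, and among lower calls it was the lowest in 112 and the highest in 66 of 218.

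**Figure D4:**
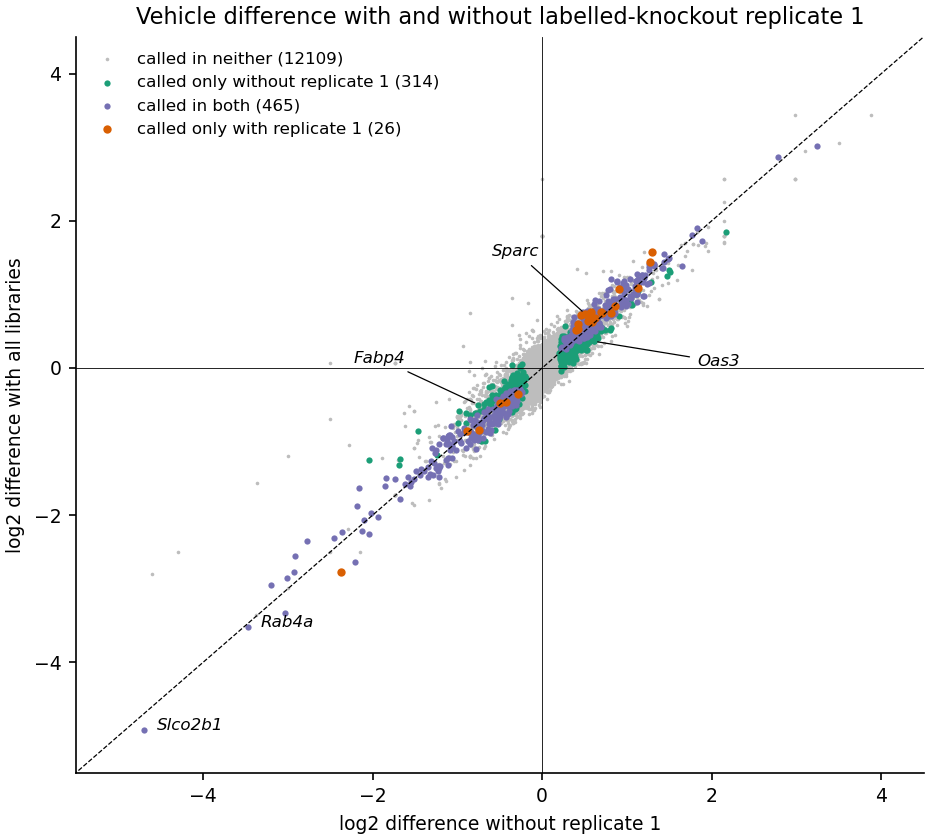
Log2 difference in vehicle with all libraries (y axis) against the difference without labelled knockout replicate 1 (x axis), 1 point per tested gene. The dashed line marks equal values. Purple points are the 465 genes called both ways, green the 314 called only without replicate 1 and orange the 26 called only with it.

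Genes called only without replicate 1 included metabolic and receptor genes. Oas3, an antiviral oligoadenylate synthetase, had 19.2, 19.2 and 20.3 CPM in controls and 15.6, 27.8 and 31.7 CPM in the labelled knockout libraries, so replicate 1 lay below the controls and its partners above. The difference was 0.36 ± 0.17 (adjusted p = 0.313) with and 0.61 ± 0.08 (adjusted p = 2.6e-06) without it. Cd109, an inhibitor of TGF-β signalling, had 47.1, 46.9 and 44.0 CPM against 39.8, 63.5 and 69.4, and Ampd3, an AMP deaminase, had 38.9, 38.5 and 37.0 CPM against 35.4, 56.2 and 55.0, the same order. On the lower side Ldha, lactate dehydrogenase A, had 464, 508 and 573 CPM against 472, 381 and 356 (-0.48 ± 0.08 without replicate 1), and Blvra, biliverdin reductase, had 222, 226 and 241 CPM against 234, 173 and 168 (-0.43 ± 0.07). In both, replicate 1 lay within the control range. Called only with replicate 1 were Serpinh1, a collagen chaperone (0.63 ± 0.16, and adjusted p = 0.291 without it), Tmem176b (0.74 ± 0.19, and adjusted p = 0.266) and Raly, an RNA-binding protein (-0.85 ± 0.20, and adjusted p = 0.178).

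The large gaps between replicate 1 and its partners were nearly all downward, and its median gap differed between classes of gene length. Of 6918 genes with 10 CPM or more in the vehicle comparison, it was at least 2-fold below the mean of replicates 2 and 3 in 136 and at least 2-fold above in 1, Zdhhc9. Pgls, an enzyme of the pentose phosphate pathway, had 83.5, 78.2 and 87.2 CPM in controls and 9.17, 68.9 and 94.1 CPM in the labelled knockout libraries, and Mpv17l2, a mitochondrial protein, had 34.4, 33.5 and 34.9 CPM against 5.14, 29.6 and 34.8. In these genes replicates 2 and 3 stayed near the controls and replicate 1 alone was low. When the tested genes were divided into 5 classes of near-equal size by exon length, the median log2 gap of replicate 1 to its partners was 0.32, 0.13, -0.04, -0.12 and -0.23 from the shortest to the longest. The median genotype difference ran from 0.12 to -0.04 over these classes with all libraries and from -0.03 to 0.03 without replicate 1. The share called was 3.33% in the shortest and 3.37% in the longest class with all libraries, and 5.34% and 6.24% without replicate 1. The part of length and RNA quality in the single-gene results was not tested.

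The called genes lay on all chromosomes with tested nuclear genes. The share called per chromosome ran from 2.30% on chromosome 18 to 6.89% on chromosome 6, which carries Pparg, where 26 genes were higher and 17 lower of 624. On the other chromosomes together 448 of 12290 genes were called (3.65%). Without replicate 1 the counts were 68 of 624 on chromosome 6 (10.9%) and 711 of 12290 elsewhere (5.79%). Within 5 Mb of Pparg 5 of 64 other genes were called without replicate 1, and 3 with all libraries: Plxnd1, the low-level gene Depp1 (1.72 ± 0.23) and Tmcc1, a membrane protein of the endoplasmic reticulum, which was lower at 40.4, 39.5 and 36.5 CPM against 17.9, 17.4 and 19.9 (-1.08 ± 0.10). The share was 7.41% within 20 Mb of Pparg and 6.39% on the rest of the chromosome. Within 5 Mb of Lyz2 1 of 39 genes was called, Hmga2, a chromatin protein, at 1.01 to 1.22 CPM against 2.56 to 3.34 (1.44 ± 0.20). Neighbours called together, with gaps under 250 kb, formed 13 runs of 3 or more. Beside the MS4A and C1q genes, one run on chromosome 6 held Tes (0.35 ± 0.09), Cav2 (0.44 ± 0.11) and Cav1, the caveolae protein caveolin 1, which had 10.6, 12.1 and 12.2 CPM against 22.7, 23.2 and 21.8 (0.96 ± 0.11). Tes and Cav2 lost their calls in 5 and 8 of 15 other settings, with adjusted p up to 0.215 and 0.16, and all 3 were named for the run. Among the 11673 protein-coding genes 267 were higher and 209 lower (4.08%), while 0 of 325 processed pseudogenes and 1 of 217 lincRNA genes were called.

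Set beside the genotype comparison after palmitate plus LPS, which shares no library with the vehicle comparison, the resting differences were partly repeated. Both comparisons used the same estimate of each gene's spread, from all 12 libraries, so their calls are not independent. The stimulated comparison called 2081 genes (16.1%; 10% higher and 6.1% lower). Of the 491 vehicle genes 201 were called there too, 40.9% of the 491 and 9.66% of the 2081, with 160 in the same and 41 in the opposite direction. Without replicate 1, 313 of the 779 vehicle genes were called there too, 40.2% of the 779 and 15.04% of the 2081, with 265 in the same and 48 in the opposite direction. Of the 273 higher genes 111 were higher again and 21 lower, and of the 218 lower genes 49 were lower again and 20 higher. Rab4a (-3.52 in vehicle and -3.71 ± 0.37 after stimulation), Mt3 (-2.31 and -2.90 ± 0.21), Sort1 (-2.21 and -2.27 ± 0.20), Cdkn1c (-1.51 and -1.67 ± 0.15), Tspan7 (-1.49 and -1.39 ± 0.12) and Cd36 (-0.90 and -0.91 ± 0.08) were called lower in both. Itgb7 (1.15 and 1.07 ± 0.11), Mmp8 (1.42 and 1.18 ± 0.16), Phlpp1, a phosphatase that acts on AKT (1.07 and 1.00 ± 0.09), and C1qa (0.79 and 0.75 ± 0.08) were called higher in both. Other genes changed side: Axl (-0.84 and 1.09 ± 0.10), Treml2 (-0.75 and 1.47 ± 0.18) and Rgs1, a regulator of G protein signalling (-0.56 and 0.68 ± 0.09), were lower in vehicle and higher after stimulation, and Cd14 (0.80 and -0.49 ± 0.11) and Cav1 (0.96 and -0.51 ± 0.10) the reverse. The vehicle call of Treml2 was lost without control replicate 2 or 3 or labelled knockout replicate 2 (adjusted p up to 0.0846). For these 5 genes the interaction term, the vehicle minus the stimulated difference, was called (edgeR adjusted p = 1.01e-05 for Axl, 0.000105 for Treml2, 8.72e-05 for Rgs1, 0.000302 for Cd14 and 4.31e-05 for Cav1). They were named for opposite calls in the same fit, so a call of this term was nearly fixed in advance. It is no further support. Over the 491 genes the interaction term was called for 88 of the higher and 84 of the lower genes. The 491 were chosen by the vehicle difference, which is part of that term, and the share over all genes is not given here. These counts therefore do not measure how many resting differences depend on stimulation.

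**Figure D5:**
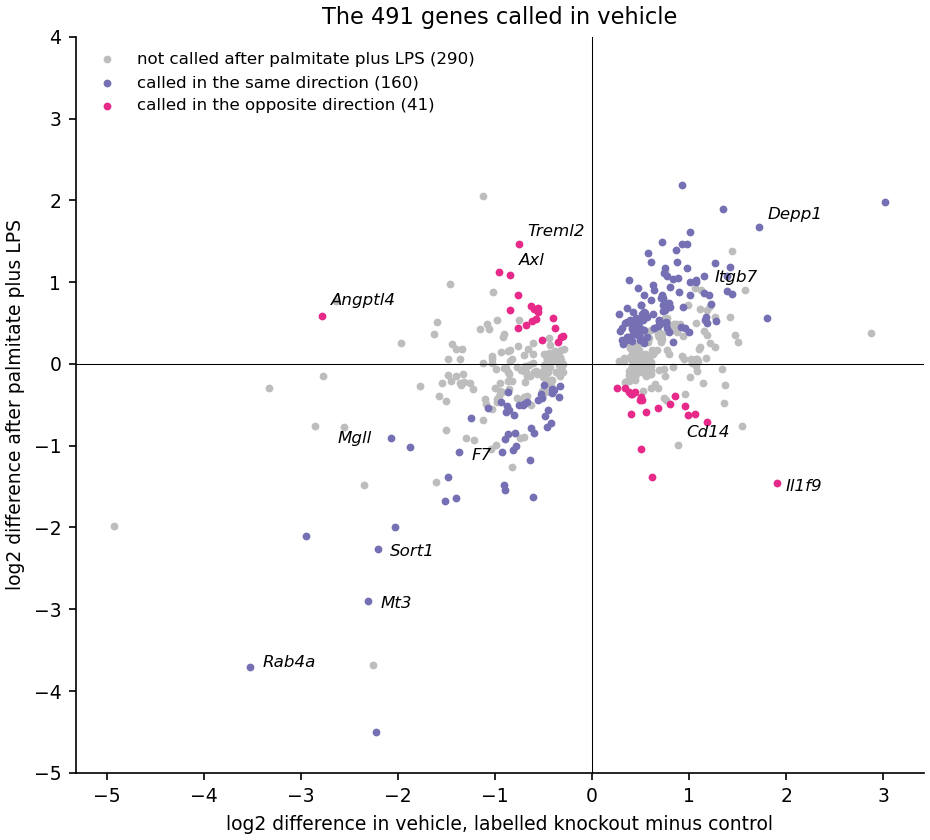
Log2 genotype difference after palmitate plus LPS (y axis) against that in vehicle (x axis) for the 491 genes called in vehicle. Purple points are the 160 genes called in the same direction after stimulation, pink the 41 called in the opposite direction and grey the 290 not called. Rab4a, Mt3 and Sort1 lie far down in both, and Axl and Treml2 lie on opposite sides of 0.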

How the data were processed

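Per the submitters' processing notes, reads were handled with bcl2fastq 2.0, STAR 2.0.4b, Subread and featureCounts 1.45 on GRCm38, and the authors deposited for each library a table of whole-number counts per Ensembl gene, with exon length and RPKM. RPKM entered no test. RNA was purified on Ambion columns and libraries were made with the SMARTer v1 kit, per the labels' protocols. Options, annotation and strand setting are not stated in the sources used here, so genes and antisense partners may share reads. Symbols were found for 40254 of 41388 IDs. Counts were filtered with filterByExpr, scaled by TMM and tested with edgeR 4.0.16 (R 4.3.3; quasi-likelihood F-test, robust, 12 libraries, 1 mean per group) with Benjamini-Hochberg adjustment. The step was tested on simulated data: at 2-fold it recovered 92% of changed genes with all libraries and 90% without labelled knockout replicate 1. At 1.5-fold it recovered 54% and 40%. No simulated library stood apart as that replicate does, and only genes above a count minimum were changed. These rates may thus be too high for the real libraries. The comparison, the 56 gene lists and 12 marker lists were chosen with earlier results of these data known. Genes were named by rule. The rule took Pparg, and up to 15 per direction with the largest difference at 10 CPM or more and no overlap between the groups. This second group leaves out pseudogenes, antigen receptor segments and predicted genes. The rule also took up to 6 with the largest CPM difference, up to 4 per list by p and 2 called against its majority. Further genes were up to 6 whose call turned on replicate 1, up to 8 with the largest gap of replicate 1, and called genes within 5 Mb of Pparg or Lyz2. Some items the rule would name, and 1 list, are not reported here. Others are marked as added or stand for a run of neighbours. Alternatives were another scaling or filter, DESeq2 1.42.0, limma 3.58.1 with quality weights, a replicate block, only vehicle libraries, and each library left out.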

Additional observations from a re-analysis of the deposited data

Results flagged for a closer look

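Among the leading and the most abundant genes called in vehicle, 17 had a vehicle difference that differed from the difference after palmitate plus LPS by the interaction term, which is the vehicle minus the stimulated log2 difference (edgeR quasi-likelihood test, adjusted over all genes; the term uses the vehicle libraries that also chose the genes). The adjusted p was between 0.000115 for Itpk1 and 0.0434 for Arl4c. Choosing genes by a large vehicle difference favours a term in that direction. The number of genes examined and the share of all genes with this term called are not given here. The count of 17 therefore shows no excess and does not measure how many resting differences depend on stimulation. The lower genes were Itpk1 (-1.42), Snx27 (-1.35), Ly75 (-1.21), Mgll (-1.16), Plin2 (-1.13), Atp6v0a1 (-1.10) and Lcp1 (-0.86). Of these, Mgll alone was also called lower after stimulation (-0.91 ± 0.11), and the stimulated differences of the other 6 were between -0.22 and 0.10 and were not called. The higher genes were Ms4a4a (1.24), Tgfbi (1.11), Galnt9 (1.09), S100a4 (1.01), Flrt3 (0.91), Folr2 (0.76), Htr2b (0.68), Arl4c (0.62) and Plxnd1 (0.61). Ms4a4a, Folr2, Htr2b, Arl4c and Plxnd1 were still called higher after stimulation, by 0.39 to 0.56, and the other 4 were not. Gpr141 was the one gene whose difference was larger after stimulation, 1.62 ± 0.12 against 1.00 ± 0.12, an interaction of -0.62.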

How the results depend on the processing

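Of 197 called genes whose stability was followed, 117 kept their call in the direction reported in all 15 other settings, and none changed sign in any. The counts of called genes moved more. Against 491 in all, 273 higher and 218 lower, leaving out 1 vehicle library gave 261 to 779 in all, 130 to 423 higher and 124 to 356 lower. The 6 vehicle libraries alone gave 233, 116 and 117. No filter on low counts gave 960, 465 and 495, limma voom with sample quality weights 1124, 596 and 528, and the 5 vehicle libraries without labelled knockout replicate 1 gave 958, 532 and 426. The weight of that replicate was 0.124, against 0.764 to 2.13 for the other 11 libraries. DESeq2 size factors (488), library totals (445), a filter at 1 CPM in 3 libraries (498) and the DESeq2 test (641) stayed within 1.5 times. Equal replicate numbers did not visibly pair the vehicle libraries across genotypes: the deviations of same-numbered libraries correlated at -0.15, 0.04 and -0.17. Labelled knockout replicate 1 stands apart in these deviations, and pairs of a vehicle with a stimulated library were not checked. The check therefore cannot exclude a pairing, and the main test treats all 12 libraries as separate. With the replicate number as a block 349 genes were called. Most calls lost by a single omission were lost without a control: 59, 64 and 41 of the followed genes without control replicate 1, 2 or 3. The promoter motif shares planned for called genes were not compared because under 80% of them had a window. With 3 libraries a group, a gene that missed the threshold is not shown to be equal between the groups.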

Other observations

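Genes of no fixed list made up 282 of the 491 calls. The values below were chosen after they were seen. Bcap31, a sorting protein of the endoplasmic reticulum, had 415, 432 and 456 CPM in controls and 286, 210 and 191 CPM in the labelled knockout libraries (-0.92 ± 0.12, edgeR adjusted p = 0.000211). Its neighbours on the X chromosome, the creatine transporter gene Slc6a8 (0.33 ± 0.08) and the adhesion gene L1cam (0.98 ± 0.20), went the other way, and lost their calls in 6 and 3 of 15 other settings (adjusted p up to 0.142 and 0.0592). Trf, encoding transferrin, had 25.4, 27.0 and 28.6 CPM against 19.7, 15.6 and 14.4 (-0.71 ± 0.11), lower like the transferrin receptor gene. Mpeg1, encoding the pore-forming perforin-2 of phagosomes, had 268, 267 and 255 CPM against 452, 477 and 527 (0.88 ± 0.10), and Hip1, a clathrin adaptor, had 57.4, 54.8 and 49.9 CPM against 20.8, 30.3 and 33.6 (-0.93 ± 0.14). No explanation was tested for any of these differences.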
